A study of Arabidopsis thaliana with 8 samples.

Results

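Transcript levels of the mutant dez were compared with those of wild type in dark-grown *Arabidopsis thaliana* seedlings on control medium with 1 µM zinc, using 4 of the 8 arrays of the study. The 4 arrays were those labelled as wild-type control and dez control, with 2 biological replicates per genotype. The other 4 arrays measured the same genotypes on high-zinc medium with 100 µM zinc and were used to see whether a difference was also present there. Each sample pooled about 45 whole seedlings that were 7 days old. All groups were grown in darkness on a modified Hoagland's medium after a short light exposure of the seeds, and were harvested in dim green light. RNA was read on Affymetrix ATH1 arrays, which give 1 intensity per probe set, a group of short probes for a transcript. In such pooled whole seedlings, fewer cells of a type and less RNA per cell cannot be told apart. The labels name neither the strain of the wild type nor the lesion of dez.

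The gene mutated in dez is TRICHOME BIREFRINGENCE (TBR, AT5G06700), as known from the literature, a member of a plant family named after it whose members, the TBR-like (TBL) proteins, include enzymes that acetylate wall polysaccharides. Seedlings kept in darkness grow by elongating the hypocotyl at the expense of seed reserves and without photosynthesis, so the breakdown of stored lipid, protein and sugar supplies their carbon. Several gene sets respond to the carbon state of plant tissue: autophagy genes, enzymes that degrade branched-chain amino acids, and the dark-induced genes.

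TBR itself had intensities of 153.6 and 168.5 on the wild-type control arrays and 112.4 and 131.4 on the dez control arrays. Both dez arrays lay below both wild-type arrays, but the log2 difference of -0.36 ± 0.12 (SE) did not pass the test (limma adjusted p = 0.0864) and was 0.12 with the arrays scaled to the spiked poly-A controls. The lesion and its place relative to the probes are unknown here, so the TBR level is no check of genotype. On high zinc TBR had 145.0 and 128.1 in wild type and 150.2 and 138.2 in dez, where the groups overlapped.

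Of 13648 probe sets tested, 1308 (9.58%) passed the threshold of a limma adjusted p of 0.05 on control medium, with 573 (4.2%) higher and 735 (5.39%) lower in dez. Changes of at least 1 log2 unit were seen for 82 of the higher and 127 of the lower probe sets, and changes of at least 2 log2 units for 8 and 16. The median difference was 0.56 among the higher and -0.64 among the lower probe sets, against 0.03 over all those tested. The lower probe sets were the brighter ones, with a median intensity of 163.1 in wild type against 79.3 for the higher and 83.5 for all tested. The 4 arrays did not overlap between genotypes at any probe set past the threshold, a pattern that 31.6% of all tested probe sets showed upwards and 26% downwards. When the arrays were scaled to the spiked poly-A controls, 177 probe sets passed and the median over all those tested was 0.51. Under that scaling 83.6% of the calls were upward, compared with 43.8% for the deposited values. The values below are therefore relative to the other transcripts on the same array.

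**Figure D1:**
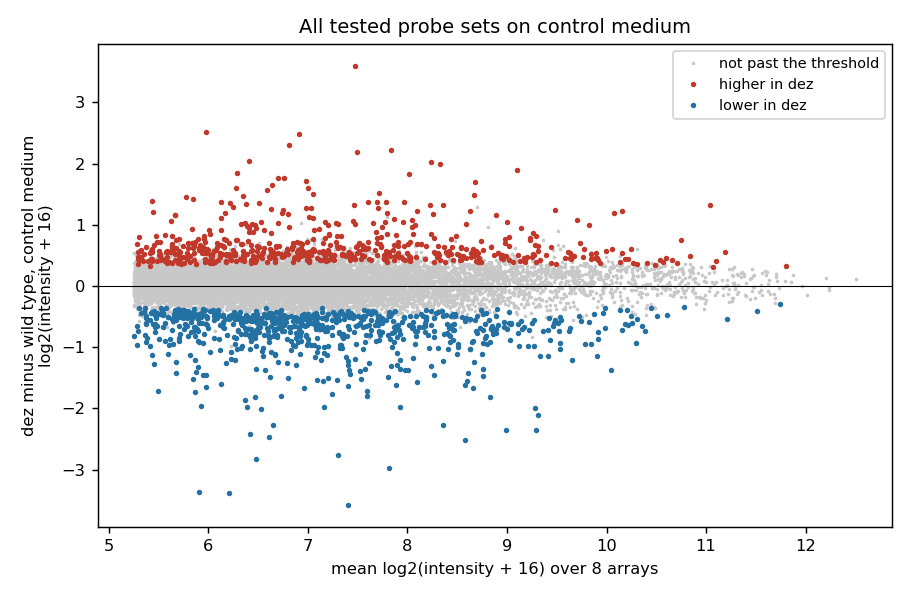
Each point is 1 of the 13648 tested probe sets, placed by its mean log2(intensity + 16) over 8 arrays (horizontal axis) and its dez minus wild-type difference on control medium in log2 units (vertical axis). The 573 higher and 735 lower probe sets past the threshold are coloured, and points past 2 log2 units lie on both sides, 8 above and 16 below; under poly-A spike scaling the centre of the cloud moves from 0.03 to 0.51.

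Some control probe sets of the arrays moved with genotype. The 25S ribosomal RNA control had log2 intensities of 5.49 and 6.47 on the wild-type control arrays and of 7.84 and 8.52 on the dez control arrays, so dez was higher by 2.2. The mean log2 signal of 3' over 5' probe sets for actin and GAPDH, which rises with RNA degradation or incomplete labelling, was 1.99 and 1.57 in wild type and 1.57 and 1.36 in dez. The log2 level of the poly-A spikes was 7.43 and 7.91 in wild type and 7.28 and 7.09 in dez. With this 3'-5' difference as a covariate 700 probe sets passed, and with the 25S signal, which does not overlap between the genotypes over the 8 arrays, 34 did. The median of all deposited intensities lay between 34.7 and 37.2 on each array. Of the organ markers, the root gene PYK10 was at 3701 and 3878 in wild type and 3657 and 3747 in dez, and the oil body gene OLEO3 at 125.9 and 75.4 against 92.3 and 61.9, and neither passed the test. The stomatal markers SPCH, MUTE and FMA, the trichome marker TRY and the root hair marker EXPA7 lay between 5.47 and 24.0 on these arrays and below the filter on low values.

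Among probe sets of 1 gene, the strongest rise was that of BCAT4, the aminotransferase that opens the chain elongation of methionine in aliphatic glucosinolate synthesis. Its intensity was 12.4 and 8.53 in wild type and 120.6 and 142.1 in dez, a log2 difference of 2.48 ± 0.12 (SE, limma adjusted p = 4.06e-06). Differences are of log2(intensity + 16), which shrinks them where intensities lie near or below 16. This holds, among others, for BCAT4 in wild type, and below for AT1G26390 and AT5G59330 in wild type and AT4G37220 and ECS1 in dez. BCAT4 reached 1146 and 1165 in dez on high zinc against 29.9 and 29.0 in wild type there. Glucosinolates are sulfur-rich defence compounds of the cabbage family. The 2 other tested entries of the aliphatic glucosinolate list also rose. GSTU20, a tau class glutathione transferase, had 102.9 and 68.7 in wild type and 216.6 and 235.4 in dez (1.27 ± 0.15, adjusted p = 8.13e-04). AT2G31790, entered by its locus, had 39.9 and 48.95 in wild type and 118.7 and 142.6 in dez (1.28 ± 0.13, adjusted p = 2.96e-04). All 3 thus rose, against 4.2% of all tested probe sets, with a median of 1.28. The list had been written with BCAT4 already known to be among the largest changes, so its direction is no independent evidence.

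UGT74B1, the glucosyltransferase of the glucosinolate core, had 88.8 and 92.6 in wild type and 149.3 and 148.2 in dez (0.63 ± 0.12, adjusted p = 0.00891). GTR2, a glucosinolate transporter chosen after its values were seen, had 240.9 and 234.2 against 348.2 and 356.9 (0.54 ± 0.10, adjusted p = 0.00962). Of 3 tested genes of the sulfur deficiency list none fell and 1 rose, against 4.2% of all tested probe sets. The median of the 3 was 0.21, and 0.70 with no call under poly-A spike scaling. The gene that rose was SIR, the sulfite reductase of sulfate assimilation, which had 280.8 and 281.2 against 419.5 and 412.6 (0.54 ± 0.10, adjusted p = 0.00733). The ATP sulfurylase genes APS3 and APS4 had differences of 0.21 and -0.07. For UGT74B1, GTR2 and SIR both replicates of a genotype were close together, yet all 3 calls were lost when either dez control array was left out (highest adjusted p = 0.0879 for UGT74B1, 0.111 for GTR2 and 0.0774 for SIR). In contrast, BCAT4, GSTU20 and AT2G31790 passed without each of the 4 control-medium arrays in turn, with highest adjusted p of 1.05e-04, 0.0131 and 0.00513.

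Among the 15 largest rises, 12 were genes that the annotation names by locus alone besides AT2G31790. AT3G45160 rose from 32.4 and 46.0 in wild type to 164.3 and 176.1 in dez (1.76 ± 0.16). AT1G26380, entered by its locus in the list of indole glucosinolate and camalexin synthesis, rose from 40.5 and 44.2 to 181.3 and 142.8 (1.60 ± 0.17). Its neighbour by locus number, AT1G26390, went from 8.09 and 6.45 to 71.1 and 30.7 (1.46 ± 0.26), and signal shared between neighbouring similar genes was not tested. AT1G21440 rose from 68.3 and 66.3 to 202.1 and 245.7 (1.52 ± 0.12). AT5G59330, AT2G43620, AT2G23540, AT5G37690, AT5G01870, AT4G12490 and AT5G09480 rose by log2 values between 1.26 and 1.39. AT2G15220 had 27.7 and 98.9 in wild type and 165.8 and 207.8 in dez (1.51 ± 0.38), and its call was lost in 3 of the 4 fits without a control-medium array, with adjusted p up to 0.213 without dez control replicate 2. The other 14 passed in each of those fits.

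**Figure D2:**
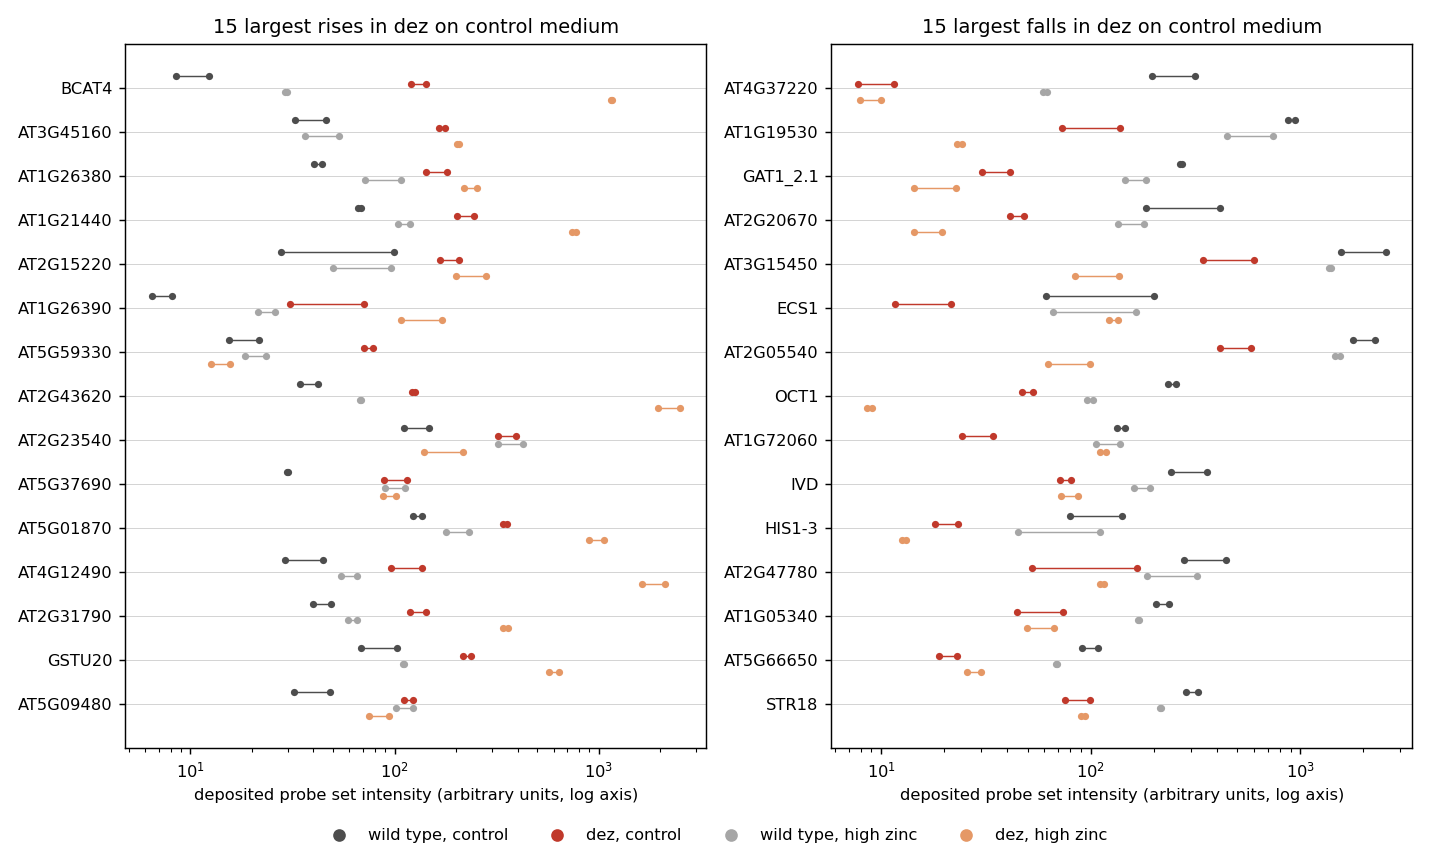
Deposited intensity (arbitrary units, log axis) of the 15 genes with the largest rises (left) and falls (right) in dez on control medium, with 1 point per array, a line between replicates, and high-zinc arrays in the lighter colours. The 2 dez control points lie above both wild-type control points for the rises and below for the falls; the wild-type points of AT2G15220 (27.7 and 98.9) and ECS1 (201.2 and 61.0) are widely spread.

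Among probe sets of 1 gene, the largest fall was at AT4G37220, a locus without a further name in the annotation used, from 196.3 and 313.3 in wild type to 11.6 and 7.74 in dez (-3.37 ± 0.18, adjusted p = 6.17e-06). AT1G19530 fell from 872.7 and 944.9 to 138.4 and 72.9 (-2.98 ± 0.26, adjusted p = 1.48e-04). GAT1_2.1, a glutamine amidotransferase-like gene of the dark-induced list, had 266.4 and 272.4 in wild type and 41.1 and 30.4 in dez (-2.47 ± 0.16, adjusted p = 2.25e-05). OCT1, an organic cation and carnitine transporter of the plasma membrane, had 254.7 and 233.7 against 53.3 and 47.3 (-1.97 ± 0.11, adjusted p = 6.52e-06). In both, the replicates of each genotype were close together and the genotypes far apart.

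AT2G20670, AT3G15450 and AT2G05540 fell by log2 values of -2.28 ± 0.28, -2.11 ± 0.28 and -2.00 ± 0.20. Of these AT3G15450 and AT2G05540 were bright. AT3G15450 was at 1572 and 2566 in wild type and 599.6 and 342.9 in dez, and AT2G05540 at 1789 and 2265 against 584.5 and 412.3. The log2 difference was -1.79 ± 0.15 for AT1G72060, -1.67 ± 0.18 for AT1G05340 and -1.65 ± 0.115 for AT5G66650. HIS1-3, a linker histone gene known to be induced by drought, had 79.6 and 140.4 in wild type and 23.35 and 18.18 in dez (-1.74 ± 0.30, adjusted p = 0.00552), and its call was lost without dez control replicate 2 (adjusted p = 0.0543). STR18, a sulfurtransferase, had 284.7 and 324.5 against 99.4 and 75.7 (-1.64 ± 0.13, adjusted p = 1.06e-04). The falls of STR18, AT1G05340 and AT5G66650 did not pass under poly-A spike scaling (limma adjusted p = 0.0753, 0.0627 and 0.0725). ECS1 had 201.2 and 61.0 in wild type against 21.6 and 11.6 in dez (-2.00 ± 0.44), and lost its call in 3 of those 4 fits (highest adjusted p = 0.145, without dez control replicate 2). AT2G47780 had a difference of -1.72 ± 0.39 and lost its call in 2 of them (highest adjusted p = 0.143, without dez control replicate 2). The other 12 of the 15 passed in all 4.

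The 9 tested genes of branched-chain amino acid and lysine breakdown had a median of -0.43 (0.06 with poly-A spike scaling, a flip in sign). Of them 4 fell, against 5.39% of all tested probe sets, and none rose. Under spike scaling 1 of the 9, IVD, was called lower. IVD, the isovaleryl-CoA dehydrogenase of the leucine pathway, had 241.1 and 360.5 in wild type and 80.97 and 71.4 in dez (-1.76 ± 0.18, adjusted p = 3.15e-04). MCCA, the biotinylated subunit of methylcrotonyl-CoA carboxylase in the following step, had 260.0 and 455.6 against 125.9 and 117.2 (-1.39 ± 0.23, adjusted p = 0.00506). MCCB, its other subunit, had 245.0 and 339.5 against 160.4 and 157.6 (-0.80 ± 0.16, adjusted p = 0.0124). For all 3 the wild-type replicates differed by more than the dez replicates, and replicate 2 was the higher one.

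ETFQO, the oxidoreductase that passes electrons from IVD to ubiquinone, had 74.0 and 87.5 in wild type and 55.8 and 55.7 in dez, with a difference of -0.43 ± 0.11 that reversed to 0.06 under poly-A spike scaling. The lysine enzyme gene LKR/SDH (AT4G33150) had 172.0 and 403.0 against 148.0 and 155.1 and did not pass (-0.74, adjusted p = 0.204). ETFALPHA, ETFBETA, D2HGDH and AT2G26800 had differences between -0.15 and 0.10 and did not pass. IVD and MCCA passed in each fit without 1 control-medium array (highest adjusted p = 0.00477 and 0.0476), whereas MCCB and ETFQO lost their calls in 3 of the 4 (highest adjusted p = 0.1003 and 0.209, both without dez control replicate 2). MGL, a methionine gamma-lyase chosen after its values were seen, also fell, from 410.3 and 457.7 to 263.2 and 230.5 (-0.78 ± 0.12, adjusted p = 0.00273). Its fall did not pass under spike scaling (-0.29, limma adjusted p = 0.491).

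Of 6 tested dark-induced and carbon starvation genes 4 fell and none rose, with a median of -0.81 that was -0.32 under poly-A spike scaling. Of all tested probe sets 5.39% were lower. Under spike scaling 1 of the 6, GAT1_2.1, was called lower. PPDK, AKINBETA1 and EXO did not pass there (limma adjusted p = 0.203, 0.32 and 0.693). Beside GAT1_2.1, PPDK, the pyruvate orthophosphate dikinase, fell from 162.0 and 193.8 to 62.95 and 55.2 (-1.37 ± 0.15, adjusted p = 6.10e-04). AKINBETA1, a regulatory subunit of the energy sensor kinase SnRK1, fell from 234.3 and 291.4 to 134.8 and 118.2 (-0.96 ± 0.135, adjusted p = 0.00188). EXO (EXORDIUM), a growth gene tied to carbon supply, had 865.8 and 746.3 against 609.8 and 421.5 (-0.65 ± 0.165, adjusted p = 0.0342). The EXO call was lost in 3 of the 4 fits without a control-medium array (highest adjusted p = 0.295, without dez control replicate 2), while GAT1_2.1, PPDK and AKINBETA1 passed in all 4. The regulator BZIP53 (-0.18) and the starch synthesis gene APL3 (0.16) did not pass. QQS, an orphan gene known to affect starch content and chosen after its values were seen, fell from 385.8 and 433.0 to 145.6 and 169.5 (-1.29 ± 0.17, adjusted p = 0.00143). Its fall did not pass under spike scaling (-0.81, limma adjusted p = 0.223).

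Autophagy genes shifted by a smaller amount, with 5 of 11 lower, none higher and a median of -0.41 that turned to 0.08 under poly-A spike scaling. None of the 11 passed under that scaling. As deposited, 5.39% of all tested probe sets were lower. The 5 lower genes were members of the ATG8 family, ubiquitin-like proteins that are attached to the lipid of the autophagosome membrane. ATG8B had 166.4 and 168.1 in wild type and 91.7 and 78.1 in dez (-0.86 ± 0.12, adjusted p = 0.00173). ATG8E had 220.9 and 216.6 against 130.6 and 118.8 (-0.74 ± 0.11, adjusted p = 0.00241). ATG8A (APG8A on the array annotation) had 426.7 and 423.3 against 280.2 and 258.9 (-0.63 ± 0.11, adjusted p = 0.00532). In these 3 genes the wild-type replicates almost coincided and the dez replicates lay clearly below as deposited. Under poly-A spike scaling ATG8B, ATG8E and ATG8A had differences of -0.38, -0.26 and -0.14. None of the 3 passed there (limma adjusted p = 0.395, 0.543 and 0.727). ATG8D (-0.47) and ATG8I (-0.43, APG8H on the array annotation, named because it was the fifth call) were at 0.02 and 0.05 under spike scaling and lost their calls in all 4 fits without a control-medium array (adjusted p up to 0.352 for ATG8D and 0.369 for APG8H). ATG8A also lost its call without dez control replicate 2 (adjusted p = 0.0803).

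The other 6 genes, ATG8C, ATG8F, ATG8G, ATG8H, the conjugating enzyme gene ATG3 and AT3G61960, had differences between -0.41 and 0.00 and did not pass. Both dez arrays lay below both wild-type arrays at 10 of the 11 genes, against 26% of all tested probe sets. GAMMA-VPE, a vacuolar processing protease chosen after its values were seen, fell from 683.8 and 754.5 to 433.0 and 459.0 (-0.67 ± 0.10, adjusted p = 0.00311). Its fall did not pass under spike scaling (-0.19, limma adjusted p = 0.655).

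**Figure D3:**
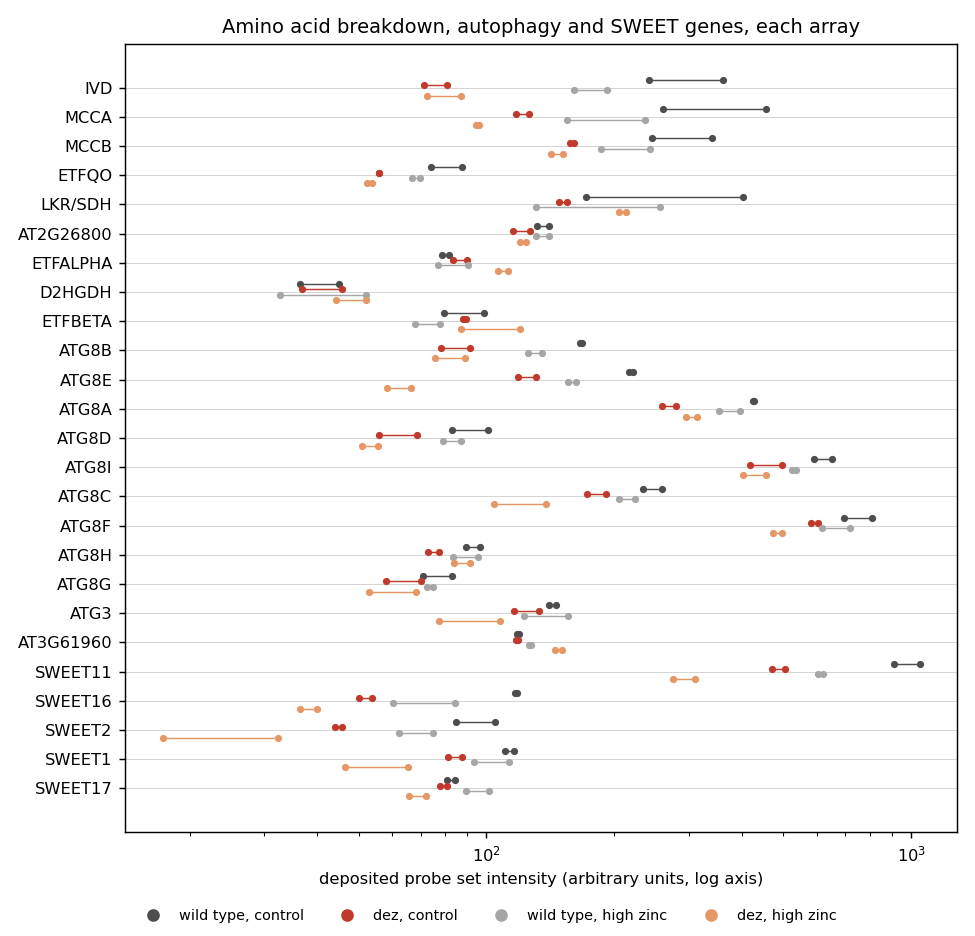
Deposited intensity (arbitrary units, log axis) of the tested genes of branched-chain amino acid and lysine breakdown, autophagy and the SWEET sugar transporters, with 1 point per array and a line between replicates. For IVD the dez control arrays (80.97 and 71.4) lie far below wild type (241.1 and 360.5), whereas ETFBETA and AT3G61960 overlap between genotypes; under poly-A spike scaling ETFQO, ATG8D and ATG8I reversed their direction.

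Of the 10 tested genes of sugar transport and starch 4 fell, against 5.39% of all tested probe sets, and none rose. The median of the 10 was -0.33 and turned to 0.16 under poly-A spike scaling, where none passed. SWEET proteins are sugar uniporters, and SWEET11, a plasma membrane sucrose carrier, had 913.1 and 1047 in wild type and 469.6 and 503.9 in dez (-0.98 ± 0.11, adjusted p = 6.10e-04). SWEET16 of the vacuole had 116.8 and 118.0 against 50.1 and 53.7 (-0.97 ± 0.13, adjusted p = 0.00167), and SWEET2, also vacuolar, 84.8 and 104.8 against 45.8 and 43.9 (-0.86 ± 0.17, adjusted p = 0.0109). ATSPS4F, a sucrose-phosphate synthase, had 31.3 and 38.15 against 16.7 and 22.3 (-0.52 ± 0.11, adjusted p = 0.017). SWEET1 (-0.36) and SWEET17 (-0.05) did not pass, and nor did TMT1, TMT2, DPE1 and cwINV6. The calls of SWEET2 and ATSPS4F were lost in 3 and 2 of the 4 fits without a control-medium array (highest adjusted p = 0.0940 and 0.152), and those of SWEET11 and SWEET16 in none.

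Of 7 tested auxin response genes 3 fell, against 5.39% of all tested probe sets, and none rose. The median of the 7 was -0.35 and turned to 0.14 under poly-A spike scaling, where none passed. IAA20, an Aux/IAA repressor, had 56.2 and 60.002 in wild type and 30.6 and 19.2 in dez (-0.87 ± 0.15, adjusted p = 0.00509). WES1 (GH3.5), which conjugates auxin to amino acids, had 386.8 and 367.7 against 240.6 and 229.1 (-0.65 ± 0.10, adjusted p = 0.00376). HAT2, an auxin-inducible homeodomain gene, had 168.8 and 179.5 against 105.0 and 107.4 (-0.64 ± 0.10, adjusted p = 0.00419). Without dez control replicate 2 the calls of IAA20 and WES1 were lost (adjusted p = 0.0610 and 0.0581). LBD16 (-0.35) missed the threshold, at adjusted p = 0.0547, and YUC2, IAA29 and GH3.3 lay between -0.13 and 0.10.

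The 8 tested genes of the hypoxia core response, most entered by locus, split, with 4 lower and 2 higher. Their median was -0.49, and -0.01 under poly-A spike scaling, where 1 was lower and 1 higher. Of all tested probe sets 5.39% were lower and 4.2% higher as deposited. AT4G39675 fell from 1524 and 1792 to 821.3 and 610.6 (-1.20 ± 0.16), and AT4G10270 rose from 53.2 and 40.04 to 107.9 and 90.48 (0.88 ± 0.14). AT1G33055 had 367.8 and 360.1 in wild type and 242.7 and 179.8 in dez (-0.76 ± 0.18), a call lost in 3 of the 4 fits without a control-medium array (highest adjusted p = 0.233, without dez control replicate 2). AT4G27450 (-0.77) was the fourth of the lower genes beside AT1G19530, and AT3G27220 (0.36) the second of the higher ones. PDC2, a pyruvate decarboxylase of fermentation, did not pass (-0.23). Of 3 tested genes of fatty acid breakdown and the glyoxylate cycle SDP1, the lipase that starts oil breakdown, fell from 86.4 and 114.1 to 64.5 and 59.9 (-0.56 ± 0.13, adjusted p = 0.0223), a call lost in 3 of those fits (highest adjusted p = 0.186). ICL, the isocitrate lyase of the glyoxylate cycle, had 44.2 and 32.65 against 17.2 and 19.1 and missed the threshold (-0.67, adjusted p = 0.0699).

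**Figure D4:**
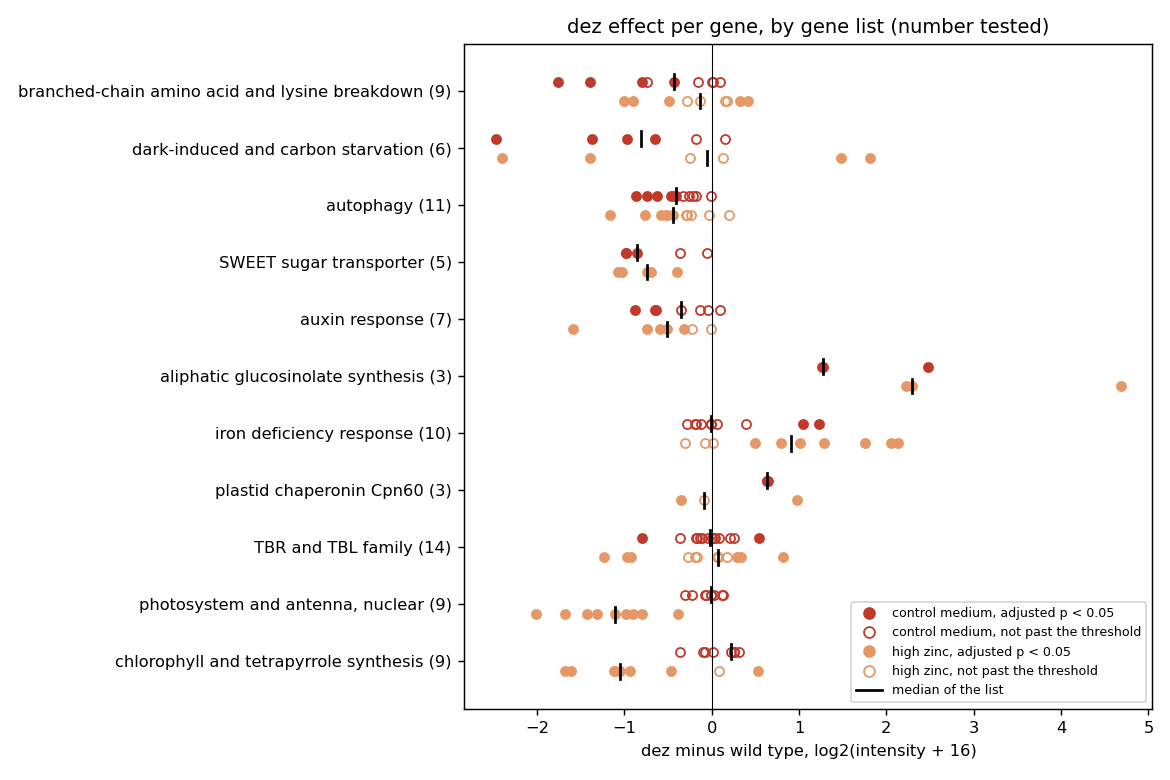
Dez minus wild-type difference in log2(intensity + 16) for each tested gene of 11 gene groups, on control medium (darker) and high zinc (lighter), filled where the limma adjusted p was under 0.05, with the median of each group as a bar and the number of genes in brackets. The medians of amino acid breakdown, autophagy and auxin response lie between -0.43 and -0.35 on control medium and turn positive under poly-A spike scaling (0.06, 0.08 and 0.14). The 9 photosystem and antenna genes sit around 0 on control medium. All 9 fell on high zinc (2 of 9 under spike scaling), against 20.7% of all tested probe sets as deposited.

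Of 10 tested iron deficiency genes 2 rose on control medium, against 4.2% of all tested probe sets, and none fell. The median of the 10 was -0.01, and 0.48 under poly-A spike scaling, where 2 rose. F6'H1 (AT3G13610), the hydroxylase that commits phenylpropanoids to iron-chelating coumarins, had 194.6 and 168.2 in wild type and 490.8 and 404.4 in dez (1.23 ± 0.15, adjusted p = 9.95e-04). AT1G47400, entered by its locus, had 33.6 and 27.2 against 89.0 and 70.8 (1.04 ± 0.18, adjusted p = 0.00552), and lost its call without dez control replicate 1 (adjusted p = 0.0550). BGLU42, which releases coumarins from their glucosides, had 55.1 and 62.4 against 81.5 and 83.1 and did not pass (0.40, adjusted p = 0.0955). On high zinc 7 of the 10 rose, against 22.2% of all tested probe sets, and 8 under spike scaling. Of the 3 tested zinc and metal transport genes, OCT1 fell as given above, while ZIP6, a zinc transporter-like gene, and bZIP19, a regulator of the zinc deficiency response, had differences of -0.14 and 0.01.

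The wall genes are given list by list, beside the 9.58% of all tested probe sets that passed. Of 14 tested genes of the TBR and TBL family 1 rose and 1 fell, with a median of -0.02 that was 0.47 under poly-A spike scaling. TBL41 had 162.1 and 165.9 in wild type and 85.7 and 89.6 in dez (-0.80 ± 0.11, adjusted p = 0.00214). TBL40 (AT2G31110) had 76.6 and 66.9 against 110.4 and 112.2 (0.54 ± 0.11, adjusted p = 0.0109), a call lost in 3 of the 4 fits without a control-medium array (highest adjusted p = 0.114). Neither call held under poly-A spike scaling (adjusted p = 0.469 for TBL41 and 0.14 for AT2G31110). Of 18 tested expansins and xyloglucan enzymes XTH19, a xyloglucan endotransglucosylase/hydrolase, fell from 471.6 and 461.5 to 260.2 and 277.5 (-0.76 ± 0.11, adjusted p = 0.00178). EXPB3, a beta-expansin that loosens walls, had 46.5 and 45.2 against 66.0 and 83.4 (0.55 ± 0.14, adjusted p = 0.0317), a call lost in all 4 of those fits (highest adjusted p = 0.289). Their median was -0.07, and 0.42 under spike scaling.

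Among 6 tested genes of pectin synthesis and modification, 2 pectin methylesterase genes went opposite ways as deposited. The median of the 6 was -0.15, and 0.33 under poly-A spike scaling, where none passed. ATPMEPCRD fell from 1117 and 1249 to 442.0 and 537.8 (-1.25 ± 0.12, adjusted p = 2.63e-04), and ATPMEPCRB (PME41) had 178.4 and 136.1 against 231.9 and 238.0 (0.55 ± 0.13, adjusted p = 0.0233). With spike scaling ATPMEPCRD was at -0.77 and ATPMEPCRB at 1.03 (limma adjusted p = 0.23 and 0.133). The ATPMEPCRB call was lost in 3 of those fits (highest adjusted p = 0.172). None of the 5 tested cellulose synthesis genes passed, with differences between -0.25 and 0.197. Outside these lists and chosen after their values were seen, SBT1.3, a subtilisin-like protease, had 231.1 and 141.6 in wild type and 435.5 and 350.1 in dez (1.04 ± 0.19, adjusted p = 0.00791; 0.0710 without dez control replicate 1). ChiC, a class V chitinase, rose from 80.5 and 76.1 to 196.5 and 149.6 (0.99 ± 0.13), and UGT72E1, which glucosylates monolignols, from 168.4 and 161.6 to 288.6 and 303.9 (0.79 ± 0.10).

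Of all tested probe sets 9.58% passed on control medium, and the short lists of nuclear photosystem and chlorophyll genes held no call. None of 9 photosystem and antenna genes passed, with a median of -0.01 (0.48 under poly-A spike scaling), and none of 9 chlorophyll and tetrapyrrole synthesis genes, with a median of 0.22 (0.71 under spike scaling). For LHCB4.2, an antenna protein of photosystem II, the intensities were 1583 and 1963 in wild type and 1320 and 1534 in dez. PORB, a protochlorophyllide oxidoreductase, had 2164 and 1874 against 1741 and 1412 (-0.36, adjusted p = 0.145). With the 3'-5' difference as a covariate 1 of the 9 photosystem genes was lower. On high zinc all 9 photosystem and antenna genes and 7 of the 9 chlorophyll genes fell, against 20.7% of all tested probe sets. Under spike scaling 2 photosystem and antenna genes fell there and none rose, and 2 chlorophyll genes fell and 2 rose.

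Of 63 tested plastid-encoded genes 4 rose and 1 fell, with a median of 0.06 that was 0.55 under poly-A spike scaling. These 5 are 7.94% of the 63, below the 9.58% of all tested probe sets that passed, and are listed for their values alone. psaJ, a small photosystem I subunit, had 459.9 and 372.3 in wild type and 738.9 and 901.6 in dez (0.95 ± 0.17), and the plastid ribosomal protein genes rpl14, rpl16 and rpl33 rose by 0.83, 0.71 and 0.61. psaB, of the photosystem I core, had 3502 and 3390 against 2512 and 2656, a difference of -0.41 that reversed to 0.07 under spike scaling. These 5 were named after their values were seen, and each lost its call in 1 or more of the 4 fits without a control-medium array (highest adjusted p between 0.0591 and 0.201). The 3 tested genes of the plastid chaperonin Cpn60, a nuclear-encoded folding machine of the plastid, were also seen only afterwards. All 3 were called higher as deposited, against 4.2% of all tested probe sets. None of the 3 passed under poly-A spike scaling (limma adjusted p between 0.0873 and 0.0891). On high zinc 1 of them rose and 1 fell. Cpn60beta2 had 336.7 and 285.0 in wild type and 486.8 and 489.5 in dez, Cpn60beta3 113.1 and 104.4 against 186.4 and 169.3, and Cpn60beta4 43.3 and 46.7 against 72.6 and 86.6. They rose by 0.63, 0.64 and 0.64, and each call was lost in 2 or 3 of those fits (highest adjusted p between 0.0967 and 0.139).

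Of 13 tested cell division and histone genes SIM (SIAMESE), an inhibitor of cyclin-dependent kinases, fell from 604.9 and 524.5 to 350.7 and 323.3 (-0.72 ± 0.12, adjusted p = 0.00505), and lost its call without dez control replicate 2 (adjusted p = 0.0695). With poly-A spike scaling SIM was at -0.23 and did not pass (limma adjusted p = 0.577). The other 12 genes did not pass as deposited, while 9.58% of all tested probe sets did. MCM7 (PRL), a subunit of the replication helicase, was nearest at 0.50 (adjusted p = 0.0542), and HTB2, a histone H2B, was at 0.40. 3 genes of mitosis outside the list, chosen after their values were seen, were higher. 3xHMG-box2, a protein of mitotic chromosomes, had 55.6 and 73.4 in wild type and 122.7 and 138.3 in dez (0.87 ± 0.16), the Aurora kinase gene AUR1 91.1 and 75.05 against 126.9 and 125.4 (0.53 ± 0.12), and UBC20, a ubiquitin-conjugating enzyme active in dividing cells, 116.1 and 116.8 against 202.4 and 175.0 (0.63 ± 0.11). Each of these calls was lost in 1 to 3 of the 4 fits (highest adjusted p = 0.0907, 0.163 and 0.0798).

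Several other lists had 1 call or none, while 9.58% of all tested probe sets passed. None of the tested genes of brassinosteroid and gibberellin (4), ethylene (2), abscisic acid and dehydration (1), salicylate and defence (3), light signalling (2) or phenylpropanoid and lignin (2) passed. Of 12 oxidative stress and glutathione genes GSTU16 had 51.9 and 55.8 in wild type and 39.25 and 35.1 in dez, a difference of -0.39 that reversed to 0.09 under spike scaling. Of 6 heat shock and unfolded protein genes CRT1b, a calreticulin, had 300.5 and 340.1 against 447.7 and 493.3 (0.53 ± 0.11, adjusted p = 0.0154). GI, a clock gene, had 64.3 and 51.9 against 41.8 and 33.9, a difference of -0.46 that reversed to 0.02 under spike scaling, and cytosolic TPI of the Calvin cycle list had 1312 and 1354 against 1720 and 1766 (0.38). The calls of GSTU16, CRT1b, GI and TPI were lost in 3 or more of the 4 fits without a control-medium array, with highest adjusted p between 0.169 and 0.332.

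The high-zinc arrays give the same contrast between genotypes with no array shared between the 2 differences, although all 8 arrays entered the filter and the estimate of the spread in both tests. The array controls moved with genotype on high zinc in the same direction as on control medium. The mean log2 25S signal on high zinc was 9.63 in dez against 6.56 in wild type. The mean 3'-5' difference was 1.202 against 1.59, and the mean log2 spike level 6.77 against 7.58. The part of the 25S and 3'-5' shifts in the calls shared between the media was not tested. On high zinc 42.8% of all tested probe sets passed, with 22.2% higher and 20.7% lower in dez. Of the 735 probe sets lower on control medium, 530 (72.1%) were also lower on high zinc, 31 were higher and 174 did not pass. Of the 573 higher ones, 316 (55.1%) were also higher, 68 were lower and 189 did not pass. The shared calls made up 10.4% of all 3026 higher and 18.8% of all 2820 lower calls on high zinc. The median of the lower probe sets was -0.64 on both media, and that of the higher ones was 0.56 on control medium and 0.39 on high zinc. The shared direction of the lower probe sets depends on the scaling. Under poly-A spike scaling their median was -0.15 on control medium and 0.17 on high zinc, where 69 were called lower and 90 higher, while that of the higher probe sets was 1.04 and 1.2, with 429 called higher and 1 lower.

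**Figure D5:**
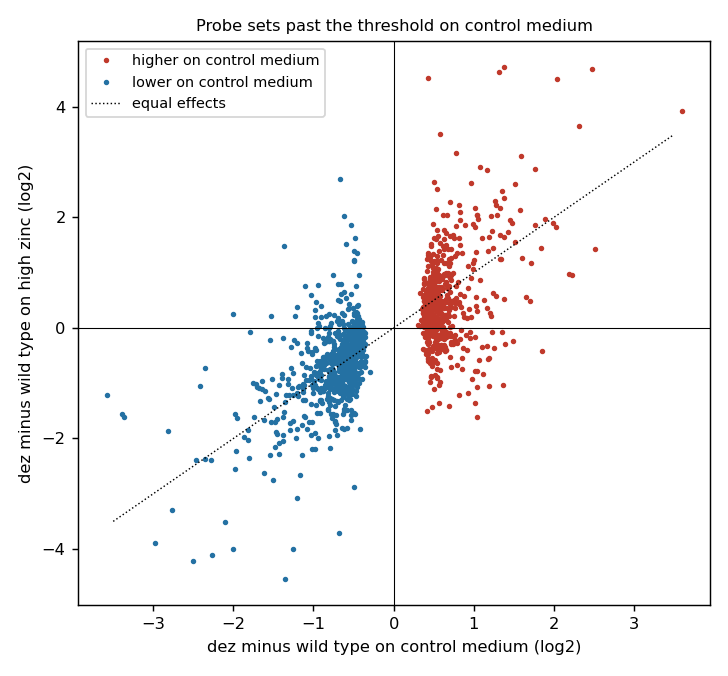
Dez minus wild-type difference on control medium (horizontal axis) and on high zinc (vertical axis), in log2 units, for the 1308 probe sets past the threshold on control medium. Of the lower probe sets 86 of 735 lie above 0 on high zinc, and of the higher ones 421 of 573 do (449 and 551 under poly-A spike scaling); the dotted line marks equal effects.

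Whether the genotype difference changed with zinc was tested as an interaction, which 19.4% of all probe sets passed, 8.87% with a positive and 10.6% with a negative sign. Because the interaction includes the arrays that chose these genes, its share among them is a description. It passed for 254 of the 573 higher probe sets, 88 with a positive and 166 with a negative sign, and for 174 of the 735 lower ones, 102 positive and 72 negative. Genes such as GAT1_2.1 (-2.47 on control medium and -2.39 on high zinc), OCT1 (-1.97 and -2.22), AT3G45160 (1.76 and 1.87) and SWEET11 (-0.98 and -1.03) had near-equal differences on both media as deposited, and their interactions did not pass (adjusted p between 0.299 and 0.872).

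PPDK took the opposite sign, at -1.37 on control medium and 1.48 on high zinc, where it had 144.6 and 113.6 in wild type and 341.1 and 436.2 in dez (interaction 2.84 ± 0.22, adjusted p = 3.23e-05). XTH19 did likewise, at -0.76 and 0.96 (interaction 1.72 ± 0.15, adjusted p = 6.58e-05). PPDK and XTH19 kept opposite signs and the call of their interaction under poly-A spike scaling. Their falls on control medium did not pass under it (-0.88 and -0.28, limma adjusted p = 0.203 and 0.511). SBT1.3 had differences of 1.04 and -0.78 (interaction -1.82 ± 0.27, adjusted p = 0.00125), but under spike scaling the second was 0.04 and the interaction did not pass (adjusted p = 0.119). ATPMEPCRD was lower on both media and far more so on high zinc, at 38.4 and 36.5 in dez against 861.1 and 825.5 in wild type (-4.01; interaction -2.76 ± 0.17). AT1G72060 fell on control medium (-1.79) and had 106.3 and 138.7 in wild type against 111.3 and 118.4 in dez on high zinc, where the groups overlapped. MGL and ALDH7B4, an aldehyde dehydrogenase, were lower on control medium (-0.78 and -1.03) and had differences of 0.09 and -0.10 on high zinc. Their interactions of 0.87 and 0.93 (limma adjusted p = 0.00444 and 0.00901) did not pass under spike scaling (adjusted p = 0.349 and 0.29). Nor did their falls on control medium pass there (-0.29 and -0.54, limma adjusted p = 0.491 and 0.288).

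The calls were spread over the genome and over expression levels. Of named genes, between 7.37% on chromosome 5 and 9.7% on chromosome 1 passed, and 7.94% of those encoded in the plastid. With the probe sets split by mean level into 3 classes of equal size, 6.99% of the dim, 8.95% of the middle and 12.8% of the bright class passed. Log2 differences between the 2 replicates had an SD of 0.23 in wild type and 0.156 in dez on control medium. Replicate 2 of wild type was above replicate 1 at 64.8% of the lower probe sets and at 53.2% of all, and replicate 2 of dez below replicate 1 at 69% against 49.2%. The count of 1308 fell to 693 without wild-type control replicate 2, to 519 without dez control replicate 1 and to 359 without dez control replicate 2.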

How the data were processed

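Deposited values were linear intensities, 1 for each probe set on an array. The submitters' processing notes name MAS5 alone, so the scaling applied by the authors is unknown here. RNA was labelled with biotin, per the labels' protocols. Of 22810 probe sets the 64 controls were left out, values were taken to log2(intensity + 16), and the upper 60% by mean over 8 arrays were tested. Group means of the 4 groups were fitted over the 8 arrays by limma 3.58.1 under R 4.3.3 (eBayes with a trend, two-sided, 4 residual and 6.28 prior degrees of freedom), with Benjamini-Hochberg adjustment over 13648 probe sets. The procedure was tested on simulated data. Symbols came from the platform annotation updated through RefSeq; 53.4% of tested probe sets had 1 gene and could be named.

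The comparison, the 36 lists (189 tested entries) and the named genes were chosen with earlier results of these data known. Named were the 15 strongest rises and the 15 strongest falls that passed and whose arrays do not overlap, at most 4 members of each list (lowest adjusted p), TBR, and genes marked as chosen after their values were seen. The brightest probe set stood for a gene. A planned motif search in promoters was not made, since no promoter sequences were used here. Alternatives were other scalings, pseudocounts, filters, priors, covariates and thresholds, a replicate block, and each array left out. The number of arrays limits the precision.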

Additional observations from a re-analysis of the deposited data

Results flagged for a closer look

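The difference between dez and wild type itself differed between the media, by the limma interaction (high zinc minus control, log2, adjusted p under 0.05), for 17 of the 30 genes with the largest changes. The arrays that chose these genes enter this test. Under poly-A spike scaling all 17 interactions kept their sign and 7 passed the threshold.

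Among the rises, the difference was larger on high zinc for BCAT4 (interaction 2.21), AT2G43620 (3.35), AT4G12490 (3.31), AT1G21440 (1.08), GSTU20 (1.03), AT2G31790 (0.95) and AT5G01870 (0.85). AT2G43620, for example, had 34.2 and 42.1 in wild type and 122.2 and 126.2 in dez on control medium, and 67.6 and 68.5 against 1944 and 2492 on high zinc. The sign of the interaction was negative for AT2G23540 (-2.4), AT5G59330 (-1.69), AT5G09480 (-1.61) and AT5G37690 (-1.43). AT2G23540 had a difference of 1.37 on control medium and of -1.03 on high zinc (-0.22 under spike scaling), and the other 3 did not pass the test on high zinc.

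Among the falls, the difference was smaller on high zinc for AT4G37220 (1.75), AT1G72060 (1.72) and AT5G66650 (0.7), and larger for AT2G05540 (-2.0) and AT3G15450 (-1.4). For ECS1 (2.25) the sign turned, from -2.00 on control medium to 0.25 on high zinc, which did not pass (limma adjusted p = 0.684). Under spike scaling the high-zinc difference of ECS1 was 1.06 and passed (limma adjusted p = 0.0111). Wild-type control intensities of ECS1 were 201.2 and 61.0, so its value rests on replicates that lie far apart. AT4G37220 also fell in wild type with zinc, from 196.3 and 313.3 to 59.1 and 61.8, while dez stayed between 7.74 and 11.6 on both media.

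Outside the tested probe sets, the 25S ribosomal RNA control was higher in dez than in wild type on control medium by 2.2 on the log2 scale. Its part in the results was not tested beyond the covariate fit.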

How the results depend on the processing

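For dez on control medium 1308 probe sets passed. The count was 177 (148 higher and 29 lower) under poly-A spike scaling, 700 with the 3'-5' covariate, 34 with the 25S covariate, 509 at an adjusted p under 0.01 and 209 with a change of at least 1 log2. Leaving out 1 array gave between 359 and 1517. The other alternatives gave between 1108 and 1362. Median centring kept 38% of calls as higher, and without dez control replicate 1 33.7% were, against 43.8%. Of 93 named genes past the threshold 37 kept their call under spike scaling, 70 with the 3'-5' covariate, 9 with the 25S covariate and 54 without dez control replicate 2. Spike scaling reversed ETFQO (0.0555), ATG8D (0.0166), GI (0.0243), GSTU16 (0.0899), APG8H (0.0512) and psaB (0.0707), an effect of adding the same shift to every probe set of an array.

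For dez on high zinc 5846 passed, with 3445 under the 3'-5' covariate, 966 under the 25S covariate, 3848 at an adjusted p under 0.01, 1162 with at least 1 log2, and between 4225 and 6029 without 1 array. The genotype by zinc interaction passed for 2653, with 244 under spike scaling, 1412 at an adjusted p under 0.01, 941 with at least 1 log2, and between 1621 and 2791 without 1 array. The cause of the covariate and single-array changes was not tested.

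The labels do not say whether replicate numbers pair the samples. Deviations of same-numbered arrays from their group means correlated by 0.37 between wild type and dez on control medium, the groups compared here. For the other 5 pairs of groups the correlation lay between -0.36 and 0.07. The source of the 0.37 was not tested. With the number as a replicate block 87 of the 93 named genes kept their call, and 1133 passed for dez on control medium, 5564 for dez on high zinc and 2464 for the genotype by zinc interaction.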
